A study of Mus musculus with 10 samples.

Results

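The 10 genes described here are fetal liver and imprinted growth genes: Afp, Igf2, Dlk1, Gpc3, Peg3, Mest, Plagl1, Ndn, Grb10 and Igf2bp3. They were chosen by name, from 22180 genes measured, and each was read from its probe set with exactly 1 gene symbol, the one with the highest mean over the 10 arrays where there were several. The question put to them was how strongly a fetal programme is still read in portal tracts at 1 week of age, and whether the genotype shifts it. The samples are portal tracts, the regions where a bile duct runs beside the portal vein, captured by laser from frozen sections of liver. Between 12 and 20 tracts were pooled per sample, and each sample was measured on a single-colour array. The 5 control samples came from C57Bl/6J mice of 1 week. The 5 Jag1+/-Rfng+/- samples came from mice of the same age that are heterozygous for Jag1, which encodes a Notch ligand, and for Rfng, whose product adds sugars to Notch receptors. Their strain and the type of either mutant allele are not given in the labels, which also list no treatment for either group. Whether each sample is a separate mouse is not said in the labels, and the p-values below measure the spread between samples, which may be technical.

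The fetal liver makes alpha-fetoprotein and insulin-like growth factor II in quantity, and hepatocytes silence the genes for both after birth, while growth of the young animal passes to other members of the insulin-like growth factor family. Imprinted genes are expressed from the maternal or the paternal copy alone, and many of them, expressed strongly in growing fetal organs, are switched down together in the first weeks of life. Of the 10 genes, 7 are imprinted in the mouse (Igf2, Dlk1, Peg3, Mest, Plagl1, Ndn and Grb10), 6 of these are known mainly for expression from the paternal copy, Grb10 mainly from the maternal copy outside the brain, and 3 are not imprinted (Afp, Gpc3 and Igf2bp3).

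To show what lies in front of these genes, the 250 bases before the start were taken from the RefSeq promoter windows of GRCm38.p6, in which all 10 genes were found, with 16 starts between them. The 3 windows below are those of Afp, the classical fetal gene of the set, and of Mest and Plagl1. On the probe sets read here, the signals of Mest and Plagl1 correlated most closely across the arrays. In the Afp window, chr5:90490464-90490713 on the plus strand, capitals mark GTTAAT, part of the site bound by HNF1 factors of the liver, and TATAAA, the letters of a TATA box. The TATAAA lies at the very end of the window, next to the annotated start, and whether it serves that start was not tested. In the windows of Mest (the second of 3 starts, chr6:30737800-30738049, plus strand) and Plagl1 (chr10:13090582-13090831, plus strand), capitals mark every CG, the letters at which DNA can be methylated. Methylation was not measured here.
Afp: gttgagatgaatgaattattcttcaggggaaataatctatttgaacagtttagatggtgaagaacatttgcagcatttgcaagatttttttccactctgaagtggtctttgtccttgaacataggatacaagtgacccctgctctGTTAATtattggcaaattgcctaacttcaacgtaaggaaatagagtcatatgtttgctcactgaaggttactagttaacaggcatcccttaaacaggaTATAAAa
Mest: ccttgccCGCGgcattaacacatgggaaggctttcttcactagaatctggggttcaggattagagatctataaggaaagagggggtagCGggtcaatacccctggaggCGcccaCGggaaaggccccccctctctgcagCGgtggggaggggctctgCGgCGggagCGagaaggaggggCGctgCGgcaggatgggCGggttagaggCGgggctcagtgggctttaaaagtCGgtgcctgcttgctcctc
Plagl1: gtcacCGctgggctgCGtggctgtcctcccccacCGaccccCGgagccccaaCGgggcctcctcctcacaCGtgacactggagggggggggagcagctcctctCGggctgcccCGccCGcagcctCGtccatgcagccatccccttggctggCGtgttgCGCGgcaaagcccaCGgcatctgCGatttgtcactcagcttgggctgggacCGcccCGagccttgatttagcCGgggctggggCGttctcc
The Afp window held 1 CG and 36% G and C, and 92.1% of the 32851 windows of all genes held as many CG or more. It held 1 GTTAAT, counted on both strands, and 1 TATAAA, counted on the gene's strand, and these letters do not overlap each other. GTTAAT was found in 6.43% of all windows, TATAAA in 7.59% and both in 0.792%. The Plagl1 window held 19 CG and neither motif, and the Mest window 14 CG and 1 GTTAAT on the other strand, against a median of 6 CG over all windows. The other starts spread widely, from 1 CG at the fourth start of Igf2 to 40 at the second start of Grb10, a number reached by 1.31% of windows. A match of letters is a description of the window only.

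Precision is limited by the number of arrays, which have no depth of reads. Array medians lay between 3.22 and 3.30 (log2). Jag1+/-Rfng+/- replicate 5, whose sample name carries the suffix excl with no stated meaning, correlated with the other arrays at 0.956 to 0.963, below all other pairs of arrays, and its erythroid markers averaged 2.48 above the control mean. Jag1 read 4.59 to 6.59 in controls and 3.68 to 5.06 in Jag1+/-Rfng+/-, lower on average by 1.33 ± 0.42 log2 (SE; exact permutation p = 0.0556; limma adjusted p = 0.559). Rfng read 4.61 to 5.13 and 4.19 to 4.57, so the groups lay apart (two-sided exact permutation p = 0.00794, which is the lowest possible with 5 against 5; limma adjusted p = 0.416). The markers of hepatocytes, the cells that surround a tract, averaged 11.31 to 11.42 in controls and 11.20 to 11.39 in Jag1+/-Rfng+/-. The highest value on each array lay between 12.23 and 12.47, so these markers stood near the top of the scale. Whether that narrows their differences was not tested. Markers of the labelled tissue were read in both groups, but many were lower in Jag1+/-Rfng+/- at an unadjusted limma p under 0.05. These were 8 of 14 bile duct markers and 9 of 19 portal fibroblast markers, with median differences of -0.62 and -0.78, and 0 of 15 hepatocyte markers. Over all genes 3.79% were lower at that level. In such bulk samples, fewer cells of a type and less RNA per cell cannot be told apart.

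All 10 genes were read above the level of an absent gene on all 10 arrays. That level was taken from Xist on the 6 arrays where it was low, and from the Y-linked Eif2s3y, Kdm5d and Uty on the other 4. These gave 1.82 to 2.91. It was also taken from the means of 1105 olfactory receptor genes. Those lay between 1.55 and 3.15 with the lowest and the highest few percent left out, so some of them read above 3.15. The lowest value of any of the 10 genes was 3.79, for Ndn on Jag1+/-Rfng+/- replicate 5. Between genotypes none of the 10 passed an adjusted p of 0.05 in limma, where 2 of all 22180 genes did, 0.00902%. At an unadjusted p under 0.05, 1 of the 10 was lower in Jag1+/-Rfng+/- (Ndn) and 0 were higher, beside 3.79% of all genes lower and 2.98% higher. The groups overlapped for all 10 genes, a count with no share over all genes to set beside it, so it says little about these genes in particular. The mean was lower in Jag1+/-Rfng+/- for 7 of them and higher for 3, with a median difference of -0.11 log2, and 51.5% of all genes were lower, with a median of -0.01.

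**Figure D1:**
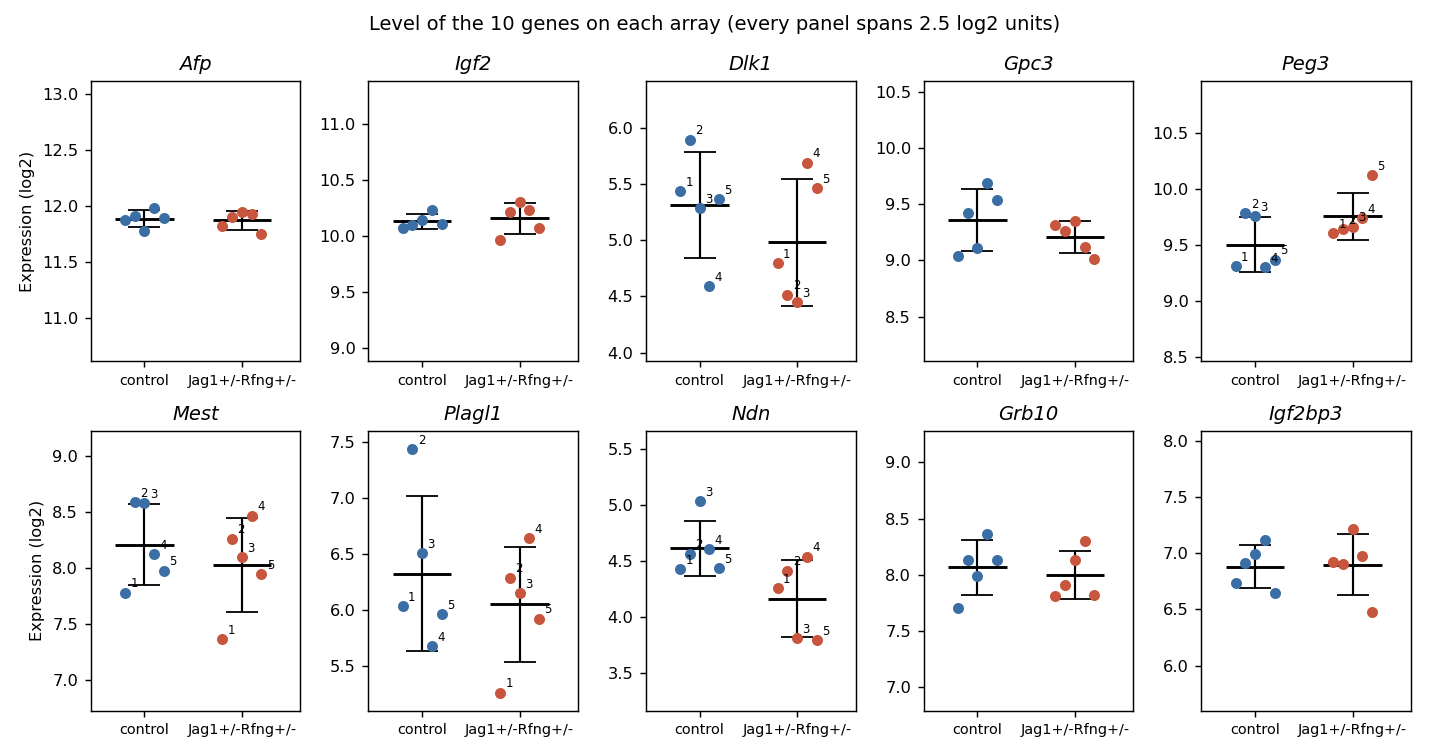
Expression of each of the 10 genes (log2, vertical axis, every panel spanning the same height) on the 5 control and 5 Jag1+/-Rfng+/- arrays; points are arrays, numbered by replicate where the text turns on them, horizontal bars are group means and whiskers 1 SD. Afp and Igf2 lie within narrow bands, Dlk1, Mest, Plagl1 and Ndn spread over more than 1 log2 unit, and the groups overlap in every panel.

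Afp (probe set 17438903, chromosome 5), which encodes alpha-fetoprotein, the main plasma protein of the fetal liver, read 11.88, 11.91, 11.77, 11.98 and 11.89 in control replicates 1 to 5. In Jag1+/-Rfng+/- replicates 1 to 5 it read 11.82, 11.90, 11.95, 11.93 and 11.75. All 10 arrays lay within 0.23 log2, a 1.17-fold range, and the groups covered nearly the same stretch. The group means were 11.89 ± 0.07 and 11.87 ± 0.08 (SD, n = 5 each), a difference of -0.02 ± 0.09 (SE; limma adjusted p = 0.984; exact permutation p = 0.762). The 95% interval of that difference runs from 1.15-fold lower to 1.13-fold higher in Jag1+/-Rfng+/-. Afp stood 0.44 to 0.69 log2 below the highest value on the same array, so these values lie near the top of the arrays' scale, and whether that narrows their spread was not tested. The sign of this small difference turned under 6 of the alternatives besides leaving out 1 array, with values up to 0.04.

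Igf2 (probe set 17498142, chromosome 7), the fetal growth factor that signals through the IGF1 and insulin receptors, read 10.07, 10.09, 10.14, 10.23 and 10.10 in controls. In Jag1+/-Rfng+/- it read 9.96, 10.21, 10.30, 10.23 and 10.07. The Jag1+/-Rfng+/- arrays spread on both sides of the controls, with replicate 1 below all of them, replicate 3 above all of them and replicate 5 level with the lowest control. The means were 10.13 ± 0.06 and 10.15 ± 0.14 (SD, n = 5 each), a difference of 0.03 ± 0.09 (SE; limma adjusted p = 0.973; exact permutation p = 0.738). Its 95% interval runs from 1.13-fold lower to 1.17-fold higher. Without Jag1+/-Rfng+/- replicate 3 the difference was -0.01.

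Igf2bp3 (probe set 17466641, chromosome 6) encodes an RNA-binding protein of fetal tissues that binds Igf2 transcripts among others. It read 6.73, 6.92, 6.99, 7.12 and 6.64 in controls and 6.92, 6.91, 7.22, 6.98 and 6.47 in Jag1+/-Rfng+/-. The lowest and the highest of the 10 values were both in Jag1+/-Rfng+/-, on replicates 5 and 3. The difference was 0.02 ± 0.14 (SE; limma adjusted p = 0.988; exact permutation p = 0.889), with a 95% interval from 1.23-fold lower to 1.26-fold higher. Among the 7 arrays that share a number in their sample names it was -0.12. Igf2bp1 and Igf2bp2, its relatives, and the noncoding neighbour of Igf2, H19, had no probe set with exactly 1 symbol and were not analysed here.

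Gpc3 (probe set 17541681, chromosome X), an X-linked gene, encodes glypican 3, a heparan sulfate proteoglycan of the cell surface that restrains growth. It read 9.04, 9.42, 9.11, 9.69 and 9.54 in controls and 9.31, 9.27, 9.35, 9.12 and 9.01 in Jag1+/-Rfng+/-. All 5 Jag1+/-Rfng+/- values lay below the control mean, but controls 1 and 3 lay as low as they did. The difference was -0.15 ± 0.14 (SE; limma adjusted p = 0.871; exact permutation p = 0.325), with a 95% interval from 1.36-fold lower to 1.11-fold higher. Leaving out 1 array moved it between -0.23, without control 1, and -0.06, without control 4. The 4 arrays with high Xist averaged 9.26 and the 6 with low Xist 9.30, a difference of -0.04 (exact permutation p = 0.786).

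Grb10 (probe set 17260668, chromosome 11), an adaptor that dampens insulin and IGF1 receptor signalling, read 7.70, 8.13, 7.99, 8.37 and 8.13 in controls. In Jag1+/-Rfng+/- it read 7.81, 7.91, 8.13, 8.30 and 7.82, and every one of these values lay inside the control range. The difference was -0.07 ± 0.14 (SE; limma adjusted p = 0.947; exact permutation p = 0.627), with a 95% interval from 1.30-fold lower to 1.18-fold higher, and it was 0.00 without control replicate 4 and 0.01 with array weights.

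Peg3 (probe set 17486110, chromosome 7), a zinc finger gene expressed from the paternal copy, read 9.31, 9.79, 9.76, 9.31 and 9.37 in controls. In Jag1+/-Rfng+/- it read 9.61, 9.65, 9.67, 9.74 and 10.13. None of the 5 Jag1+/-Rfng+/- values lay below the control mean, and replicate 5 lay above every other array, while controls 2 and 3 stood above the other 4 Jag1+/-Rfng+/- arrays. The difference was 0.25 ± 0.14 (SE; limma adjusted p = 0.777; unadjusted p = 0.100; exact permutation p = 0.119), with a 95% interval from 1.04-fold lower to 1.47-fold higher. Without Jag1+/-Rfng+/- replicate 5 it was 0.16 (limma unadjusted p = 0.246), and without control replicate 2 it was 0.32 (limma unadjusted p = 0.0469, adjusted p = 0.750).

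Ndn (probe set 17478789, chromosome 7), which encodes necdin, a protein that holds cells out of division, is expressed from the paternal copy. It read 4.42, 4.56, 5.03, 4.60 and 4.44 in controls and 4.26, 4.41, 3.81, 4.53 and 3.79 in Jag1+/-Rfng+/-. Of the 5 Jag1+/-Rfng+/- arrays, 4 lay below all controls, and replicate 4 lay among them. The means were 4.61 ± 0.25 and 4.16 ± 0.34 (SD, n = 5 each), a difference of -0.45 ± 0.17 (SE), 1.37-fold lower, with a 95% interval of -0.83 to -0.07. The unadjusted limma p was 0.0230 and the exact permutation p 0.0317, but the limma p adjusted over all genes was 0.645, and 788 genes had a lower p. The limma unadjusted p was 0.0616 without control replicate 3, 0.0622 without Jag1+/-Rfng+/- replicate 3 and 0.0582 without Jag1+/-Rfng+/- replicate 5. With the portal fibroblast list mean as a covariate the difference was -0.19 (limma unadjusted p = 0.330). That list was itself lower in Jag1+/-Rfng+/-, so this fit cannot cleanly separate it from genotype.

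Dlk1 (probe set 17278647, chromosome 12), a transmembrane protein related to the Notch ligands that marks fetal hepatoblasts, read 5.44, 5.90, 5.29, 4.59 and 5.37 in controls. In Jag1+/-Rfng+/- it read 4.80, 4.52, 4.45, 5.69 and 5.46. The Jag1+/-Rfng+/- arrays fell apart into 3 at or below 4.80 and 2 at or above 5.46, and control 4 sat with the low ones. The difference was -0.33 ± 0.28 (SE; limma adjusted p = 0.861; exact permutation p = 0.357), and its 95% interval is wide, from 1.92-fold lower to 1.21-fold higher. It was -0.19 without control 2 and -0.52 without control 4. When the portal fibroblast list was a covariate it was -0.07, with the same limit as for Ndn.

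Mest (probe set 17456934, chromosome 6), a gene for a hydrolase-like protein of growing mesoderm, is expressed from the paternal copy. It read 7.78, 8.58, 8.58, 8.12 and 7.98 in controls and 7.37, 8.26, 8.10, 8.47 and 7.94 in Jag1+/-Rfng+/-. Both groups spread over about the same stretch, with the lowest value on Jag1+/-Rfng+/- replicate 1. The difference was -0.18 ± 0.22 (SE; limma adjusted p = 0.896; exact permutation p = 0.492), with a 95% interval from 1.57-fold lower to 1.22-fold higher. Without Jag1+/-Rfng+/- replicate 1 it was -0.02, and without control 2 or control 3 it was -0.09 each.

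Plagl1 (probe set 17231694, chromosome 10), a zinc finger gene known to regulate other imprinted genes, read 6.03, 7.44, 6.51, 5.67 and 5.96 in controls. In Jag1+/-Rfng+/- it read 5.26, 6.28, 6.15, 6.64 and 5.92. It had the widest range of the 10 genes, 2.18 log2 or 4.52-fold, and the extremes were control 2 and Jag1+/-Rfng+/- replicate 1. The difference was -0.27 ± 0.32 (SE; limma adjusted p = 0.896; exact permutation p = 0.516), with a 95% interval from 1.97-fold lower to 1.35-fold higher. Without control replicate 2 it was 0.01. It was the only one of the 10 with another probe set of exactly 1 symbol, which read 5.67 to 6.97 in controls and 5.09 to 6.26 in Jag1+/-Rfng+/-, a difference of -0.48 (exact permutation p = 0.206). A covariate for the fibroblast markers turned the sign of both Mest (0.21, limma adjusted p = 0.871) and Plagl1 (0.38, limma adjusted p = 0.811). Most of those markers were themselves lower in Jag1+/-Rfng+/-, so the fit cannot cleanly separate them from genotype.

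**Figure D2:**
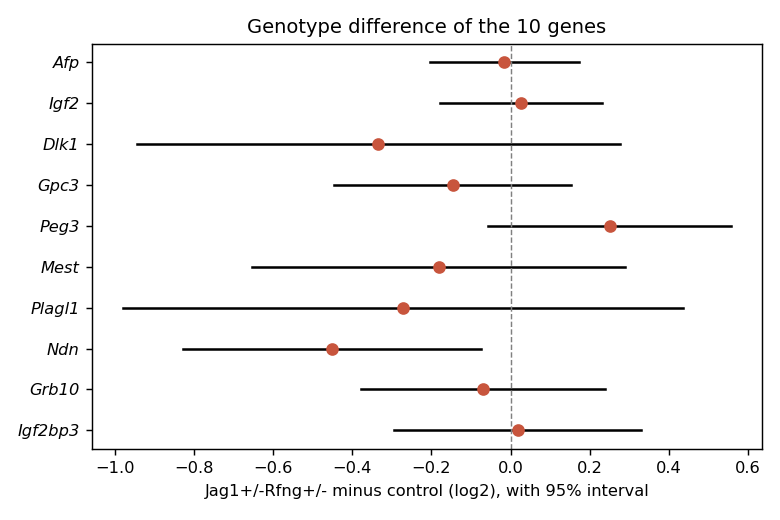
Difference between Jag1+/-Rfng+/- and control means (log2, horizontal axis) for each of the 10 genes, with the 95% interval from limma as a line. Only the interval of Ndn, -0.83 to -0.07, leaves out 0, at an unadjusted level, and the intervals of Afp and Igf2 are the narrowest.

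The precision differed between the genes and sets what the comparison can show. The SD within groups, pooled over both, was 0.08 for Afp and 0.11 for Igf2, against a median of 0.27 over genes brighter than the median level, and 4 of the 10 lay above that median: Ndn at 0.30, Mest at 0.39, Dlk1 at 0.52 and Plagl1 at 0.61. For Dlk1 and Plagl1 the intervals reached 1.92-fold and 1.97-fold lower. A p that misses the threshold therefore does not show equal levels for these genes. Among the 7 arrays that share a number in their sample names, 3 control and 4 Jag1+/-Rfng+/-, Ndn differed by -0.60 (exact permutation p = 0.0857), Dlk1 by -0.23 (exact permutation p = 0.657) and Peg3 by 0.18 (exact permutation p = 0.543), where 0.0286 is the smallest p possible. The other sample-name numbers hold 1 array each.

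Of the 45 pairs that the 10 genes make, 31 correlated positively across the arrays. After each group's mean was subtracted, Mest and Plagl1, the latter by its probe set 17231694, went together most closely. They had Pearson's r = 0.84 (permutation p = 0.00196, adjusted over 45 pairs 0.0882) and Spearman's rho = 0.93 (permutation p = 0.00038, adjusted 0.0171) over 10 arrays. Their r was 0.76 without the 2 arrays farthest from the median of Mest and 0.84 without Jag1+/-Rfng+/- replicate 5. Both were high on controls 2 and 3 and on Jag1+/-Rfng+/- replicate 4, and both were lowest on Jag1+/-Rfng+/- replicate 1. The other Plagl1 probe set was also high on control 2 (6.97) and Jag1+/-Rfng+/- replicate 4 (6.26), but departed from this pattern elsewhere. It read 6.00 on control 3, below its control mean of 6.40. On Jag1+/-Rfng+/- replicate 1 it read 6.22, above its group mean of 5.92, and it was lowest on replicate 5 (5.09). That probe set entered none of the correlations, so the relation is shown for 1 Plagl1 probe set only. No r passed after adjustment over the 45 pairs (0 of 45, with 5 at an unadjusted p under 0.05), and the rho of Mest and Plagl1 was the only one of 45 that did.

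Afp, Igf2 and Grb10 correlated positively with each other, with no pair past the adjustment. Afp and Igf2 had r = 0.68 (permutation p = 0.0327, adjusted 0.284) and rho = 0.83 (permutation p = 0.00431, adjusted 0.0970), and r was 0.96 without the 2 arrays farthest from the Afp median. Igf2 and Grb10 had r = 0.69 (permutation p = 0.0284, adjusted 0.284) and rho = 0.81 (permutation p = 0.00738, adjusted 0.111), with 0.73 without the 2 farthest arrays. Afp and Grb10 had r = 0.67 (permutation p = 0.0342, adjusted 0.284) and rho = 0.75 (permutation p = 0.0173, adjusted 0.182), with 0.78 without them. Of the controls, replicate 4 was highest for all 3. On the other side Afp and Peg3 ran against each other at r = -0.60 (permutation p = 0.0654, adjusted 0.284) and rho = -0.37 (permutation p = 0.295, adjusted 0.510), but r was 0.07 without 2 arrays, so that relation rests on them. On the values as they are, without subtracting group means, Mest and Plagl1 had r = 0.85 and rho = 0.83 (adjusted permutation p = 0.0945 and 0.194).

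**Figure D3:**
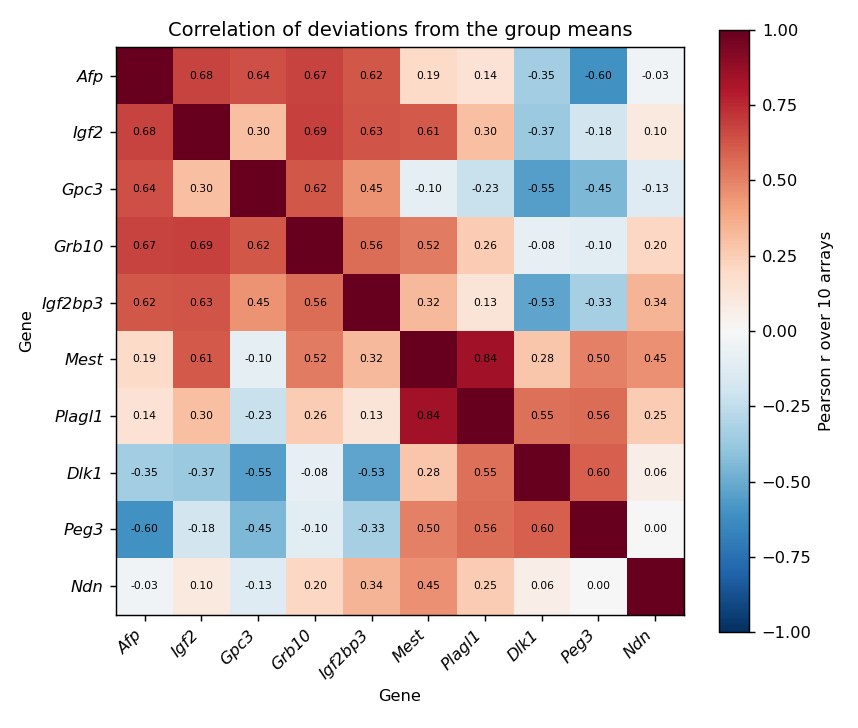
Pearson correlation between every pair of the 10 genes over the 10 arrays, after subtracting each group's mean (colour from -1, blue, to 1, red, with the value in each cell). The strongest cell is Mest with Plagl1 at 0.84, Afp, Igf2, Gpc3, Grb10 and Igf2bp3 are positive with each other, and Afp with Peg3 is lowest at -0.60. Plagl1 is shown by its probe set 17231694 alone.

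Plagl1, Mest and Ndn correlated positively with the portal fibroblast markers across the arrays, but none of these relations passed the adjustment. In controls the mean of the 19 fibroblast markers, relative to the control mean, was 0.04, 0.36, 0.42, -0.69 and -0.13, and in Jag1+/-Rfng+/- it was -1.27, -0.33, -0.77, 0.01 and -1.46. After subtracting group means, Plagl1 followed it with r = 0.76 (permutation p = 0.00991, adjusted over 30 relations 0.0991; rho = 0.77, permutation p = 0.0124, adjusted 0.219), and r was 0.81 without the 2 farthest arrays. Mest had r = 0.71 (permutation p = 0.0234, adjusted 0.173; rho = 0.70, permutation p = 0.0300, adjusted 0.255), also 0.71 without them. Ndn had r = 0.61 (permutation p = 0.0638, adjusted 0.233; rho = 0.64, permutation p = 0.0542, adjusted 0.325), but 0.33 without them. Dlk1 had r = 0.36 (permutation p = 0.298, adjusted 0.585; rho = 0.31, permutation p = 0.385, adjusted 0.648), and 0.47 without them.

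Peg3 ran against the hepatocyte list, with r = -0.87 (permutation p = 0.00081, adjusted over the same 30 relations 0.0243) and rho = -0.76 (permutation p = 0.0146, adjusted 0.219), and r was -0.69 without control 3 and Jag1+/-Rfng+/- replicate 5. Peg3 was highest, and the hepatocyte list lowest, on Jag1+/-Rfng+/- replicate 5. The top of the scale was also lowest on that array, at 12.23 against 12.36 to 12.47 elsewhere. The part of this in the hepatocyte list's value was not tested. Afp ran with that list at r = 0.68 (permutation p = 0.0288, adjusted 0.173; rho = 0.53, permutation p = 0.123, adjusted 0.479), but r was 0.06 without control 3 and Jag1+/-Rfng+/- replicate 5. Igf2bp3 ran against the erythroid list at r = -0.84 (permutation p = 0.00206, adjusted 0.0309; rho = -0.68, permutation p = 0.0340, adjusted 0.255), but r was -0.50 without control 5 and Jag1+/-Rfng+/- replicate 5, so it rests on those arrays. With the hepatocyte list as a covariate the Peg3 difference was 0.16 and the Ndn difference -0.40. The portal fibroblast list was itself lower in Jag1+/-Rfng+/- (median difference -0.78). Fits with it as a covariate therefore cannot cleanly separate it from genotype. The part of cell content in any of the 10 genes' values was not tested.

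**Figure D4:**
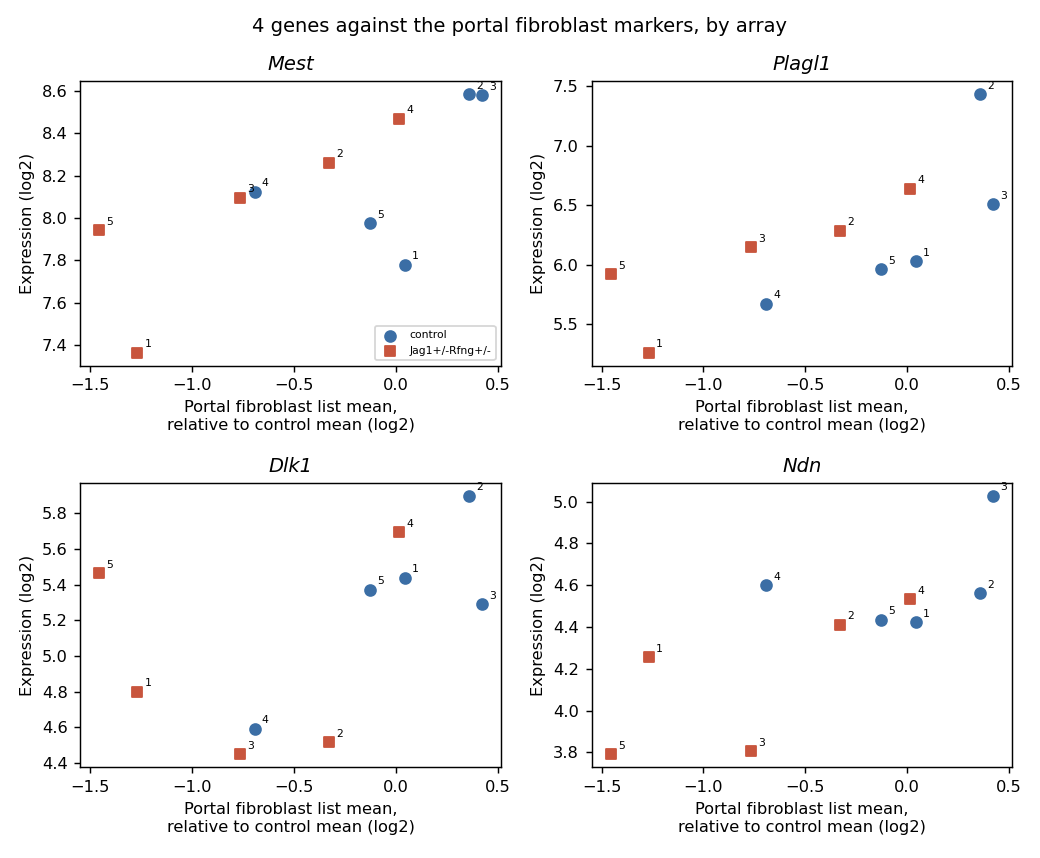
Expression of Mest, Plagl1, Dlk1 and Ndn (log2, vertical axes) against the mean of 19 portal fibroblast markers relative to the control mean (log2, horizontal axes), with control arrays as circles, Jag1+/-Rfng+/- arrays as squares and the replicate number beside each. Jag1+/-Rfng+/- replicates 1 and 5 lie at the low end, at -1.27 and -1.46, and controls 2 and 3 at the high end, at 0.36 and 0.42.

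Likeness was sought among 10423 genes brighter than the median, leaving out small RNAs and symbols of the Gm, Rik or LOC kind. Those whose deviations were most like each gene's over the 10 arrays were, for Afp, Dusp19 (r = 0.96), AW549542 (0.96) and Cyp2e1 (0.92), the last a cytochrome P450 of mature hepatocytes. For Mest they were Krt10 (0.98), Plxna1 (0.95) and Tulp4 (0.94), and for Plagl1 Cdk7 (0.96), Vezf1 (0.95) and P3h2 (0.94). Among these same genes Plagl1 ranked 85 by its likeness to Mest, and Mest ranked 79 by its likeness to Plagl1. Igf2 was most like Mrpl54 (0.94), Dlk1 like Rilpl1 (0.91), Gpc3 like Trpm7 (0.95), Peg3 like Pfkp (0.97), Ndn like Thoc5 (0.94), Grb10 like Sharpin (0.97) and Igf2bp3 like Tlr5 (0.96). These are the highest of 10423 values each over 10 arrays, given as a description.

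Other genes of the same programmes were read from lists, of which none had a gene past the adjusted threshold. Beside the counts of these lists, 2.98% of all genes were higher in Jag1+/-Rfng+/- and 3.79% lower at an unadjusted limma p under 0.05. Of 24 measured genes with fetal liver expression besides the 10, 4 were higher in Jag1+/-Rfng+/- at that level and 0 lower, with a median difference of 0.13 log2. Markers of blood and immune cells were read beside them. The mean was higher in Jag1+/-Rfng+/- for 8 of 8 erythroid markers (median difference 0.43, 0 at an unadjusted limma p under 0.05) and for 10 of 11 macrophage markers (median 0.16, 2 at that level, Clec4f and C1qa). The erythroid mean, relative to the control mean, was -0.68 to 0.57 in controls and -0.25 to 0.22 in Jag1+/-Rfng+/- replicates 1 to 4, against 2.48 on replicate 5. The macrophage mean was -0.32 to 0.25 in controls and -0.38 to 0.77 in Jag1+/-Rfng+/-. The part of these cells in the fetal genes was not tested.

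Bex1, a gene of hepatoblasts and of neurons, read 6.66, 7.19, 7.16, 7.00 and 6.89 in controls and 7.36, 7.37, 7.39, 7.76 and 8.51 in Jag1+/-Rfng+/-. The groups lay apart, with replicate 5 highest. The difference was 0.70 ± 0.21 (SE; limma adjusted p = 0.537), and 0.49 without replicate 5. Igdcc4, an immunoglobulin-family surface protein, read 4.08 to 4.85 in controls and 4.86 to 5.12 in Jag1+/-Rfng+/-, a difference of 0.44 ± 0.14 (SE; limma adjusted p = 0.537). Trim71, which with the RNA-binding protein LIN28 belongs to the pathway of let-7 microRNAs, and Arid3a, a DNA-binding protein of fetal blood formation, differed by 0.28 and 0.24 (limma adjusted p = 0.618 and 0.698). Lin28b read 2.08 to 2.65, within the level of an absent gene on all 10 arrays, while Lin28a, at 3.23 to 3.82, lay above it on all 10.

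Of 32 measured imprinted genes besides the 10, 0 were higher and 2 lower at an unadjusted p under 0.05, with a median difference of -0.02. Rian, a maternally expressed noncoding RNA of the cluster that also holds Dlk1, read 8.38, 7.71, 7.43, 8.27 and 8.12 in controls and 6.85, 7.48, 7.31, 7.36 and 6.35 in Jag1+/-Rfng+/-. The groups overlapped only where control 3 lay just under Jag1+/-Rfng+/- replicate 2. The difference was -0.91 ± 0.24 (SE), 1.88-fold lower (limma unadjusted p = 0.00243, adjusted p = 0.416). Without Jag1+/-Rfng+/- replicate 5 it was -0.73 (exact permutation p = 0.0238), and among the 3 control and 4 Jag1+/-Rfng+/- arrays of the shared number -0.68 (exact permutation p = 0.0857). Meg3, the noncoding RNA next to it, named here after its value was seen, differed by -0.49 ± 0.28 (SE; limma adjusted p = 0.782), beside -0.33 for Dlk1. Copg2, which neighbours Mest, differed by -0.31, Peg10 by 0.48 and Blcap by 0.24 (limma adjusted p = 0.607, 0.771 and 0.777).

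Regulators of the fetal liver genes were mixed. Of 16 measured, 1 was higher and 1 lower at an unadjusted p under 0.05, with a median of -0.02, which leaving out 1 array moved between -0.09 and 0.03. Onecut1, a transcription factor of hepatoblasts and bile ducts, read 7.06 to 7.72 in controls and 6.39 to 7.04 in Jag1+/-Rfng+/-, a difference of -0.48 ± 0.16 (SE; limma adjusted p = 0.572), and it also stands in the bile duct list. Cebpb differed by 0.41, Nr2f2 by -0.50 and Foxa2 by -0.24 (limma adjusted p = 0.631, 0.743 and 0.836). Zhx2 and Zbtb20, which shut off Afp after birth and are named for that role, differed by 0.01 ± 0.20 and -0.06 ± 0.14 (SE; limma adjusted p = 0.995 and 0.954). Of 13 proteins that set or keep imprints, 0 were higher and 1 lower at that level, with a median of -0.06. It was Dnmt3b, a DNA methyltransferase, which read 4.71 to 5.13 in controls and 3.27 to 4.81 in Jag1+/-Rfng+/- (difference -0.73 ± 0.23, SE; limma adjusted p = 0.564). Smchd1 differed by -0.17 and Zfp57 by 0.19 (limma adjusted p = 0.848 and 0.865), and Dppa3 read within the absent level on all 10 arrays.

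Around Igf2, 26 genes of the insulin-like growth factor axis were measured, of which 2 were higher and 2 lower at an unadjusted p under 0.05, with a median of -0.06 (0.01 without Jag1+/-Rfng+/- replicate 5). The binding protein gene Igfbp2, which fetal liver expresses strongly, read 9.80, 10.51, 10.28, 10.38 and 10.17 in controls and 10.72, 10.60, 10.79, 10.70 and 10.46 in Jag1+/-Rfng+/-. All Jag1+/-Rfng+/- arrays but replicate 5 lay above every control. The difference was 0.43 ± 0.13 (SE; limma adjusted p = 0.540). Igfbp1 differed by 0.45, and Igfbp3 and Igfals, which carry the growth factors in the blood, by -0.82 and -0.93 (limma adjusted p = 0.732, 0.619 and 0.672). Igf1, the postnatal growth factor, and the receptors Igf1r and Igf2r, named for their roles, differed by -0.32, -0.41 and -0.23 (limma adjusted p = 0.773, 0.816 and 0.861). Of 9 genes made up of other glypicans, Dlk2 and enzymes that act on glypicans, 1 was higher and 0 lower at that level. Their median was -0.12, but 0.04 without Jag1+/-Rfng+/- replicate 1, 0.07 among the arrays of the shared number and 0.12 with the fibroblast covariate. The gene that was higher was the glypican gene Gpc1, with a difference of 0.32 ± 0.14 (SE; limma adjusted p = 0.698), while Gpc6 and Gpc2 differed by -0.32 and -0.21 and Sulf1, a sulfatase that trims heparan sulfate, by -0.38 (limma adjusted p = 0.743, 0.865 and 0.748).

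As the counterpart of the fetal genes, 27 genes that hepatocytes turn up after birth were read. At an unadjusted p under 0.05, 1 was higher and 1 lower in Jag1+/-Rfng+/-, with a median of 0.02. The sign of that median rests on single arrays: it was -0.23 without control 3 and 0.12 without control 4, and among the arrays of the shared number it was 0.19. Baat, which joins bile acids to amino acids, read 5.22, 5.30, 4.49, 5.68 and 4.54 in controls and 6.46, 5.91, 6.09, 6.11 and 5.52 in Jag1+/-Rfng+/-. The groups overlapped only through control 4 and Jag1+/-Rfng+/- replicate 5. The difference was 0.97 ± 0.24 (SE; limma adjusted p = 0.356). Hal, the histidine-degrading enzyme, differed by -0.78, Apoa4 by 0.66 and Fbp1, an enzyme of glucose synthesis, by -0.23 (limma adjusted p = 0.619, 0.771 and 0.771).

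**Figure D5:**
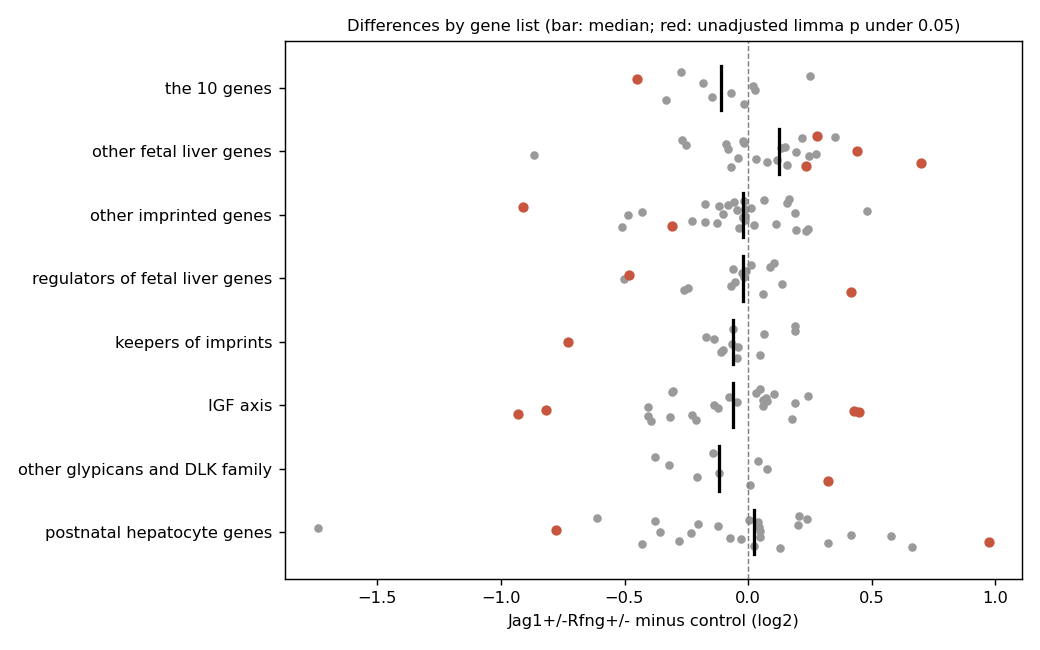
Difference between Jag1+/-Rfng+/- and control means (log2, horizontal axis) for each measured gene of the 10 genes and 7 related lists (rows), with the list median as a black bar and genes at an unadjusted limma p under 0.05 in red. List medians lie between -0.12 and 0.13, those of 4 lists turn sign when 1 array is left out, and each list holds genes on both sides of 0.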

How the data were processed

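RNA of 5 control and 5 Jag1+/-Rfng+/- portal tract samples, isolated with a PicoPure kit per the labels' protocols, was measured on single-colour arrays. The authors deposited log2 expression values for 33649 probe sets. The submitters' processing notes list RMA and Partek 6.6 without saying what each did. RMA as a rule equalizes the distributions of arrays and narrows differences of dim genes. Only the 23521 probe sets with 1 symbol in the platform annotation were used (1814 had several, 8314 none), which gave 22180 genes. Chromosomes are those of RefSeq's GRCm38.p6 table. Groups and replicates came from sample titles.

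The genotype test was limma's (version 3.58.1, R 4.3.3; lmFit, eBayes, no covariate, two-sided, Benjamini-Hochberg over all genes, threshold 0.05), tested on simulated data, beside exact permutation tests over 252 splits of the arrays. Correlations used 100000 resamples, in scipy 1.17.1. The members and lists were chosen with earlier results of these data known. Named are the 10 genes, Jag1, Rfng, Xist and Y-linked genes, 4 genes of lowest p per related list and the 3 genes most like each of the 10, with a few others marked in the text. For likeness only the nearest gene is printed for 7 of the 10. Alternatives left out each array or changed block, weights, normalization, filter, probe sets or covariates.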

Additional observations from a re-analysis of the deposited data

Results flagged for a closer look

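Peg3 on Jag1+/-Rfng+/- replicate 5 read 10.13, set apart from the other 4 arrays of its group, which lay between 9.61 and 9.74. The gap to the nearest of them was 0.735 of the group's whole range, above Dixon's limit of 0.71 for 5 samples. It was the only such value among 20 combinations of gene and group, where chance alone sets apart about 1 in 20. The same array had the highest erythroid and the lowest hepatocyte marker means, and the lowest top of the scale (12.23).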

How the results depend on the processing

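None of the 10 genes passed the adjusted threshold in any of the 23 alternatives (0 of 10 in each; 1 at an unadjusted p under 0.05 in the reported limma fit). At an unadjusted p under 0.05, leaving out 1 array gave 0 to 2 of the 10, the portal fibroblast covariate 0, and the arrays of the shared number without Jag1+/-Rfng+/- replicate 5, an alternative chosen after seeing the data, 0. Ndn stayed lower throughout (-0.60 to -0.19, an unadjusted limma p under 0.05 in 18 of 23). Dlk1, Gpc3 and Peg3 kept their sign in all 23, with sizes that moved with 1 array left out (Dlk1 -0.52 to -0.19, Gpc3 -0.23 to -0.06, Peg3 0.16 to 0.32). Over all 23 the ranges were wider, -0.52 to -0.07 for Dlk1, -0.25 to -0.06 for Gpc3 and 0.07 to 0.32 for Peg3. Mest ran from -0.29 to -0.02 with 1 array left out.

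Signs turned for differences near 0. Afp was 0.0166 with array weights and with quantile normalization, 0.0191 with cyclic loess, 0.00904 and 0.00551 with the hepatocyte and fibroblast covariates, 0.0390 in the added alternative, and -0.0434 to 0.0142 with 1 array left out. Leaving out 1 array gave -0.0110 to 0.0741 for Igf2, -0.434 to 0.00662 for Plagl1, -0.161 to 0.00498 for Grb10 and -0.0615 to 0.124 for Igf2bp3. With the fibroblast covariate Mest was 0.208 and Plagl1 0.384, Grb10 was 0.0116 with array weights and Igf2bp3 -0.117 in the shared-number arrays. The medians of the glypican and postnatal lists were 0.14 and 0.27 in the added alternative, and the postnatal median was 0.17 with array weights. The cause was not tested.

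Over all genes, those past the adjusted threshold numbered 2, and 2 to 6 with 1 array left out (5 without control 4, 4 without control 5, 6 without Jag1+/-Rfng+/- replicate 2), 5 with array weights, 11 with trend and robust, 11 among genes above the median level, 4 with the hepatocyte and 1 with the fibroblast covariate, and 0 in the added alternative. At an unadjusted p under 0.05 there were 1500, and 848 among genes above the median, since fewer were tested. Same-numbered samples correlated at -0.23 to 0.06, which gave no sign of pairing by replicate number but cannot exclude it with so few samples. The replicate block gave 2 genes past the threshold and a Ndn difference of -0.45 (limma unadjusted p = 0.0380). Without scanner files no signal over background was at hand, and Ndn lies closest to the absent level.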
